A study of Mus musculus with 24 samples.

Results

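The transcripts of the interstitial collagens were followed in 24 kidneys, each from a male mouse carrying X-linked Alport syndrome (XLAS). The chains were Col1a1 and Col1a2 of collagen I, Col3a1 of collagen III, Col5a1, Col5a2 and Col5a3 of collagen V, and Col6a1, Col6a2 and Col6a3 of collagen VI. They were chosen by gene symbol from the deposited count table, where each of the 9 symbols matched 1 row, so the set is 9 of 55487 genes. XLAS is a hereditary glomerular disease in which the collagen IV chain gene Col4a5 on the X chromosome is defective, and every mouse here had it, so the data hold no kidney without Alport disease. The mice compared were labelled heterozygous (HET, n = 13) or wild type (WT, n = 11) for Nbl1, which encodes a secreted antagonist of bone morphogenetic proteins. All were on the B6 strain background and were sampled at 15 weeks of age. Libraries were labelled as batch 2, with 7 HET and 5 WT mice, or batch 1, with 6 HET and 6 WT mice. The labels describe neither allele further than that, nor which piece of the kidney was taken.

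Collagens I, III and V form the fibrils of connective tissue, and collagen VI forms beaded microfilaments around them. Collagen I is mainly a heterotrimer with more α1 than α2 chains, collagen III is a homotrimer, and collagen V sits inside fibrils of collagen I, where it starts their assembly. Collagen VI is built from α1, α2 and α3 chains that must assemble before secretion. In the kidney these chains come mainly from interstitial fibroblasts, pericytes and mesangial cells, and their deposition is the scar of chronic kidney disease. The basement membrane collagen that is lost in Alport disease, collagen IV, is another family.

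All 9 chains were well above the counting floor in every library. The lowest count of any chain was 181 (Col5a3) and the highest 15129 (Col3a1), out of 29551337 to 50746652 counts per library. Together they held 0.0523% to 0.104% of a library's counts. Counting error, as the coefficient of variation that a median count allows, was 1.37% for Col1a1 and 5.83% for Col5a3. Markers of kidney epithelium were strong in all libraries: the summed level of 7 proximal tubule genes was 12220 to 15410 CPM (TMM-scaled counts relative to library size). Nbl1 stood at 3.86 to 9.24 CPM in HET and 3.62 to 15.2 CPM in WT mice, so the genotypes overlapped. The log2 CPM difference of Nbl1, HET minus WT, was -0.95 in batch 2 (exact two-sided permutation p = 0.00379). In batch 1 it was -0.38 (p = 0.175 by the same test). These p-values do not compare the batches. edgeR's test of whether the genotype difference changed between batches called 0 of 18339 genes, Nbl1 included. The labels of 3 batch 1 libraries are in doubt. The library labelled HET replicate 6 had 9.24 CPM of Nbl1 and no count of Htr6, a gene with reads in the other HET libraries, while those labelled WT replicates 1 and 2 had 26 and 14 counts of Htr6. The results over all mice and in batch 1 were therefore also computed without these 3. In the other batch 1 libraries Nbl1 had 124 to 155 counts in HET and 224 to 257 counts in WT. HET replicate 6 was doubted partly for its Nbl1, so this gap is not a separate observation. Each library has its own title, but the labels do not give litter or cage, so p-values measure the spread between these samples.

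The genes lie on 6 chromosomes (GENCODE M21, GRCm38). Col1a1 is on chromosome 11 (94936224 to 94953042, plus strand) and Col1a2 on chromosome 6 (4504814 to 4541544, plus strand). Col3a1 (45311538 to 45349706, plus strand) and Col5a2 (45374321 to 45503282, minus strand) face each other tail to tail on chromosome 1 with 24614 bases between them. Col6a3 is also on chromosome 1 (90765923 to 90843971, minus strand). Col5a1 is on chromosome 2 (27886425 to 28039514, plus strand) and Col5a3 on chromosome 9 (20770050 to 20815067, minus strand). Col6a2 (76595762 to 76623630) and Col6a1 (76708792 to 76726168) follow each other on the minus strand of chromosome 10. All 9 are annotated as protein coding.

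RefSeq promoter sequences (GRCm38.p6) were at hand for 7 of the 9 chains, with none for Col1a1 and Col5a2. They are shown because most chains moved together between mice, as described below, while their genes are spread over several chromosomes. For 5 chains, 120 bases upstream of the RefSeq start that overlap no annotated exon are printed 5′ to 3′ on the gene's strand, with the motif CCAAT, the motif GGGCGG or the motif TATAAA on either strand in capitals (no matches overlapped). The Col1a2 window lies further upstream of the RefSeq start than the others, before a GENCODE transcript that begins there. It lies inside the GENCODE span of the gene, which starts at 4504814, and so is not upstream of the whole gene. The 5 chains were picked by hand. A Col6a2 window (chr10:76623631-76623750, minus) also overlapped no annotated exon but is not printed, and its motifs are not given. The windows are chr6:4505373-4505492 (plus) for Col1a2, chr1:45311418-45311537 (plus) for Col3a1, chr2:27886305-27886424 (plus) for Col5a1, chr9:20815068-20815187 (minus) for Col5a3 and chr1:90843972-90844091 (minus) for Col6a3.
Col1a2: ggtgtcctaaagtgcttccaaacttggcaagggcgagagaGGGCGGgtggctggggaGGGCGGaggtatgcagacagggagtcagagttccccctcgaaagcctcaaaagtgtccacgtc
Col3a1: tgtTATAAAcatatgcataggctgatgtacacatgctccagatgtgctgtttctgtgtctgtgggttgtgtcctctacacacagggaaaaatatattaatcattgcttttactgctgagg
Col5a1: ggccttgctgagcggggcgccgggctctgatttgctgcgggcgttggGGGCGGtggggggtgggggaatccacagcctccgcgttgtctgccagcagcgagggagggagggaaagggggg
Col5a3: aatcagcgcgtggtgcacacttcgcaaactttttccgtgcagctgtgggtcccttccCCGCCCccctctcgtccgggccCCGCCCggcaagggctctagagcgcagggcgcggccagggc
Col6a3: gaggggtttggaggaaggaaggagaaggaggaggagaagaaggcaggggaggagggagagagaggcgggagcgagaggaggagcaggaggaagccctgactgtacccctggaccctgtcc

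GGGCGG, the letters of a GC box, occurred in the windows of Col1a2, Col5a1 and Col5a3 (on the reverse strand in Col5a3). TATAAA occurred in the window of Col3a1, beginning 117 bases before the RefSeq start, and no printed window held CCAAT. Over all 32851 promoters of the table, windows of this length at the start held GGGCGG in 26.5%, TATAAA in 6.3% and CCAAT in 21.3%. At the distance used for Col1a2 the share with GGGCGG was 13.1%. The 5 windows thus shared no motif of the 3 searched. A match is a description of the letters and no evidence of binding.

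Levels of different chains were compared per length, as TPM (transcript abundance relative to all transcripts of a library), within a batch. Across batches TPM could not be set side by side, because genes that do not code for proteins took 21.4% to 31.8% of TPM in batch 2 and 61.7% to 68.5% in batch 1. In batch 2, Col3a1 averaged 65.3 ± 14.2 TPM, Col1a2 55.0 ± 12.1 and Col1a1 36.2 ± 9.36 TPM (SD, n = 12 mice). The chains of collagen VI followed, with Col6a1 at 17.8 ± 3.12, Col6a3 at 13.3 ± 2.82 and Col6a2 at 13.1 ± 2.56 TPM. The chains of collagen V were lowest, with Col5a1 at 8.82 ± 1.66, Col5a2 at 7.55 ± 1.23 and Col5a3 at 2.18 ± 0.620 TPM. The order was the same in batch 1, where Col3a1 averaged 27.0 ± 7.51 TPM and Col5a3 0.974 ± 0.192 TPM (n = 12). Within each mouse the order held for most neighbours. Col1a2 exceeded Col1a1 in all 12 mice of each batch, and Col5a2 exceeded Col5a3 in all 12. Col3a1 exceeded Col1a2 in 12 of 12 mice of batch 2 and in 10 of 12 of batch 1. The steps within collagen VI and collagen V were less firm: Col6a3 exceeded Col6a2 in 8 of 12 mice of batch 2, and Col5a1 exceeded Col5a2 in 9 of 12, against 11 of 12 and 8 of 12 in batch 1.

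No chain passed the test between HET and WT mice. Over all mice, with batch as a covariate, edgeR's quasi-likelihood test called 0 of 18339 genes at an adjusted p under 0.05, a background of 0.0%, and none of the 9 chains. Unadjusted p was under 0.05 for 755 genes and for none of the 9 chains. DESeq2 and limma voom also called 0 genes, with 811 and 805 under that unadjusted threshold. Col5a3 was under it by limma voom (unadjusted p = 0.0397, adjusted p = 0.981), and limma on log2(TPM + 1) also put this chain under 0.05 (unadjusted p = 0.0495, adjusted p = 0.976). For Col1a1, whose chain makes up most of collagen I, the HET kidneys held 112 to 206 CPM (median 153) and the WT kidneys 116 to 204 CPM (median 142). The ranges nearly coincided, and the log2 fold change of HET over WT was 0.00056 (standard error, SE, 0.12, adjusted p = 1.00). For Col1a2, the other collagen I chain, it was -0.0012 (SE 0.09, adjusted p = 0.999), and for Col3a1 0.05 (SE 0.11, adjusted p = 0.997).

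The 95% interval for Col1a1 ran from 84.8% to 118% of the WT level, for Col1a2 from 88.0% to 113% and for Col3a1 from 88.5% to 122%. Among the collagen VI chains, which line cells and fibrils alike, Col6a1 had an interval of 92.6% to 113%, Col6a2 of 91.6% to 118% and Col6a3 of 90.8% to 114%. In collagen V, Col5a1 had 92.7% to 117% and Col5a2 95.9% to 121%. Col5a3, the minor collagen V chain, had the lowest estimate, 87.6% of WT with an interval of 75.7% to 101% (log2 fold change -0.19, SE 0.10, adjusted p = 0.997). Without the 3 doubted libraries 2 genes were called, and again none of the chains.

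**Figure D1:**
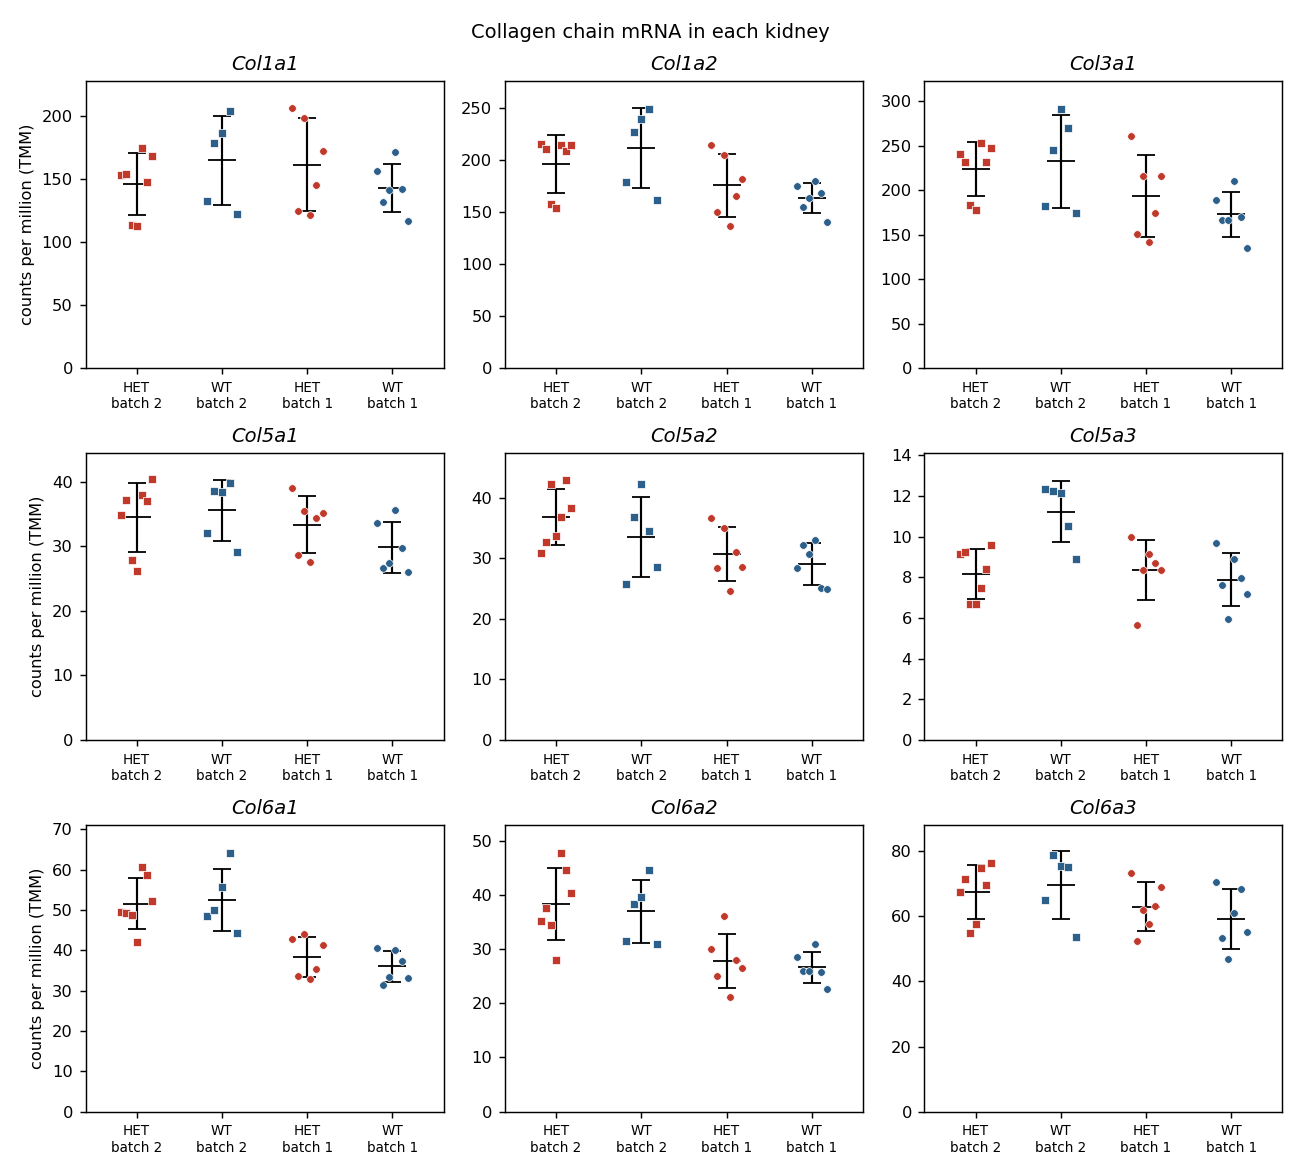
TMM-scaled CPM of each chain (y axis) in every kidney by genotype and batch (x axis; HET red, WT blue); bars are the mean ± SD. HET and WT points overlap in all panels, and Col5a3 in batch 2 has the least overlap, with HET at 6.67 to 9.58 CPM and WT at 8.90 to 12.3 CPM.

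Within batch 2 the lowest estimate was that of Col5a3, whose α3(V) chain joins α1(V) and α2(V) in a minor form of collagen V. It held 6.67 to 9.58 CPM (median 8.41) in the 7 HET mice. The 5 WT mice of batch 2 had 12.3, 12.2, 12.1, 10.5 and 8.90 CPM. The groups overlapped: 4 of 7 HET mice lay below every WT mouse, and 4 of 5 WT mice lay above every HET mouse. The HET level was 72.0% of WT, a log2 fold change of -0.47 (SE 0.11, 95% interval -0.71 to -0.24). The difference did not pass edgeR's test over all genes (adjusted p = 0.477, unadjusted p = 0.000441). In batch 2 that test called 1 of 18339 genes (0.00545%), and 1530 (8.34%) had an unadjusted p under 0.05, among the chains only Col5a3. DESeq2 called 26 genes there (0.142%), and Col5a3 was one of them (adjusted p = 0.0471). An exact two-sided permutation of log2 CPM over the 7 and 5 mice gave p = 0.00884, unadjusted. Leaving out each mouse of batch 2 in turn kept the log2 fold change between -0.55 and -0.43.

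The other 8 chains in batch 2 had log2 fold changes of -0.19 (Col1a1, SE 0.16) to 0.11 (Col5a2, SE 0.12), with adjusted p from edgeR of 0.737 or more. In batch 1 the 9 estimates ran from 0.06 (Col6a2, SE 0.11) to 0.17 (Col1a1, SE 0.16), and none passed the test (adjusted p = 1.00 for each). The chains moved together between mice, as described below, so their signs are not separate observations. edgeR called 0 genes (0.0%) in batch 1 with 509 at an unadjusted p under 0.05, DESeq2 called 1 (537) and limma voom 0 (581). Col5a3 in batch 1 held 5.63 to 9.98 CPM in the 6 HET mice (median 8.55) and 5.93 to 9.69 CPM in the 6 WT mice (median 7.80), a log2 fold change of 0.09 (SE 0.13). Without the 3 doubted libraries that fold change was 0.15 (SE 0.16, unadjusted p = 0.343 by edgeR). No chain separated the genotypes without overlap in either batch, where 101 genes (0.551%) did so in batch 2 and 16 (0.0872%) in batch 1.

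Whether the genotype difference itself differed between batches was tested as an interaction. edgeR called 0 of 18339 genes (0.0%; 1504 at an unadjusted p under 0.05), DESeq2 0 (1573), and no chain. The interaction was largest for Col5a3, at -0.54 on the log2 scale (SE 0.18, unadjusted p = 0.0051, adjusted p = 0.557), and -0.34 for Col1a1 (SE 0.22, adjusted p = 0.681). Markers of fat, a tissue that can adhere to a kidney sample, also varied in these mice. The summed level of 10 adipose genes was 64.5 to 310 CPM in HET (median 115) and 65.7 to 317 CPM in WT mice (median 266) of batch 2, and 38.1 to 241 CPM (median 82.1) in HET and 37.0 to 244 CPM (median 49.4) in WT mice of batch 1. No adipose gene was at 0 throughout, and in batch 2 all 10 had a log2 fold change below 0 (median -0.75), with none called by edgeR. Their part in the Col5a3 difference was not tested. In bulk kidney RNA, fewer cells of a type and less RNA per cell cannot be told apart.

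**Figure D2:**
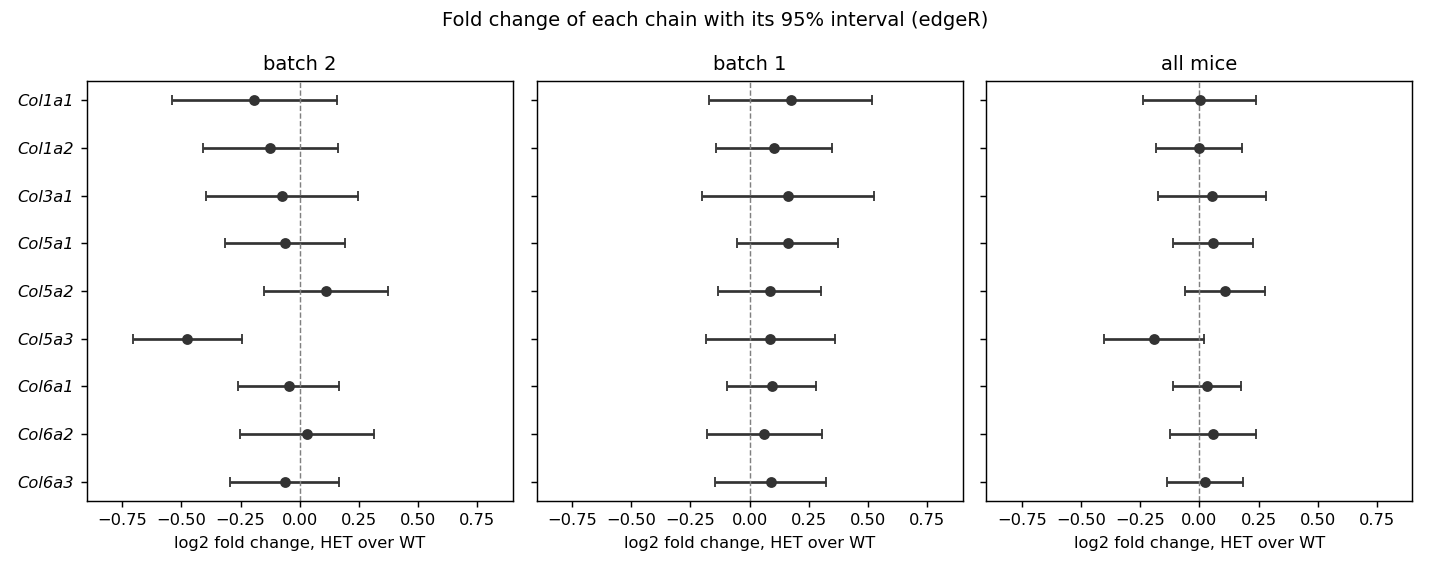
Log2 fold change of HET over WT (x axis) for each chain (y axis), with its 95% interval from edgeR, in batch 2, in batch 1 and over all mice. Only the interval of Col5a3 in batch 2 lies wholly below 0 (-0.71 to -0.24), and its adjusted p over all genes was 0.477.

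The measured Nbl1 level can also be set beside the chains. With genotype and batch in the model, the slope on Nbl1, per doubling of its CPM, was above 0 for 8 of 9 chains and for 44.7% of all genes. The chains moved together between mice, so their signs and p-values here are not separate observations. The slope was 0.28 for Col1a1 (SE 0.13), 0.24 for Col5a1 (SE 0.09) and for Col5a3 (SE 0.12), 0.22 for Col1a2 (SE 0.10) and 0.20 for Col6a3 (SE 0.09), and -0.04 for Col5a2 (SE 0.10). No chain passed over all genes: edgeR called 1 of 18338 genes (0.00545%), and the smallest adjusted p of a chain was 0.356 (Col5a1). Unadjusted p was under 0.05 for 4 chains (Col1a2, Col5a1, Col6a1 and Col6a3) and for 11.2% of all genes. Without the 3 doubted libraries the slopes ran from 0.12 (Col5a2, SE 0.18) to 0.48 (Col1a1, SE 0.24), and again no chain passed. Unadjusted p was then under 0.05 for Col1a2, Col5a1, Col5a3 and Col6a3, and the slope of Col5a3 was 0.46 (SE 0.21, unadjusted p = 0.0387, adjusted p = 0.416 by edgeR), against an unadjusted p of 0.0639 with all libraries. The median slope of the 9 chains was 0.22, against -0.01 over all genes. Some lists of cell type markers had slopes of the same sign: the median was 1.05 over the 10 adipose genes (10 of 10 above 0) and 0.24 over the 11 macrophage genes (11 of 11). It was 0.21 over the 16 fibroblast and myofibroblast genes (16 of 16) and 0.22 over the 11 tubular injury genes (10 of 11). Over the 6 urothelium genes it was 0.40 (6 of 6), and over the 10 immediate early genes 0.52 (10 of 10). Other lists had lower medians. It was -0.05 over the 7 genes of the loop of Henle and collecting duct (1 of 7 above 0). Over the 8 podocyte genes it was -0.001 (3 of 8), and over the 7 proximal tubule genes 0.0042 (4 of 7). None of these genes was called, and the part of these gene lists in the chains' slopes was not tested.

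Chain ratios were taken as ratios of TPM within each kidney, which cancels a scaling factor that both chains share. What is particular to 1 chain does not cancel, such as the length its counts were divided by. Expected count divided by TPM, relative to Col1a1, varied between libraries by up to 1.53 times (Col3a1). The collagen I ratio, Col1a1 to Col1a2, was 0.642 ± 0.0386 in HET and 0.671 ± 0.0253 in WT mice of batch 2 (n = 7 and 5), and 0.783 ± 0.0589 in HET and 0.758 ± 0.0439 in WT mice of batch 1 (n = 6 each). The coefficient of variation within a group was 3.77% to 7.52%, so this ratio was tight while the level of either chain varied by 8.75% to 22.8%. Every kidney held more Col1a2 than Col1a1 transcript per length. Over all mice HET and WT differed by -0.0084 on the log2 scale (permutation of genotype within batch, two-sided, p = 0.822).

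The collagen VI ratio Col6a1 to Col6a2 was 1.35 ± 0.0822 in HET and 1.41 ± 0.0793 in WT mice of batch 2 and 1.39 ± 0.142 in HET and 1.35 ± 0.100 in WT mice of batch 1, with a coefficient of variation of 5.61% to 10.2% within a group. Col5a1 and Col5a2, the chains of the main collagen V heterotrimer, stood near parity, at 1.13 ± 0.193 in HET and 1.247 ± 0.153 in WT mice of batch 2 and 1.09 ± 0.0891 in HET and 1.03 ± 0.205 in WT mice of batch 1. Over all mice none of the 8 ratios tested differed between HET and WT after adjustment over the 8. The smallest unadjusted p was 0.0385, for Col5a3 to Col5a1 (log2 difference -0.22, adjusted p = 0.308, permutation), and it passed (adjusted p = 0.0202) when HET replicate 4 was left out, which had the highest such ratio of all mice, 0.373.

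The Col5a3 to Col5a1 ratio was the ratio that differed in batch 2. It was 0.216 ± 0.0258 in HET mice (n = 7) and 0.286 ± 0.0332 in WT mice (n = 5). HET mice ranged from 0.173 to 0.247 and WT mice from 0.242 to 0.335, so that only HET replicate 8 and WT replicate 10 overlapped. The log2 difference was -0.41 (exact permutation p = 0.00253, two-sided, adjusted p over the 8 ratios = 0.0202). With expected counts in place of TPM it was again -0.41 (adjusted p = 0.0101). The call was lost with log2(TPM + 1) (-0.23, adjusted p = 0.172), with medians (-0.37, adjusted p = 0.101), and in 6 of the 12 tests that left out a mouse. Those were HET replicates 7, 9, 10, 12 and 13 (adjusted p = 0.052 without each) and WT replicate 7 (adjusted p = 0.0727). In batch 1 the ratio was 0.261 ± 0.0620 in HET and 0.263 ± 0.0329 in WT mice, a log2 difference of -0.03 (exact permutation p = 0.855). Whether the ratio's difference changed between batches was not tested.

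**Figure D3:**
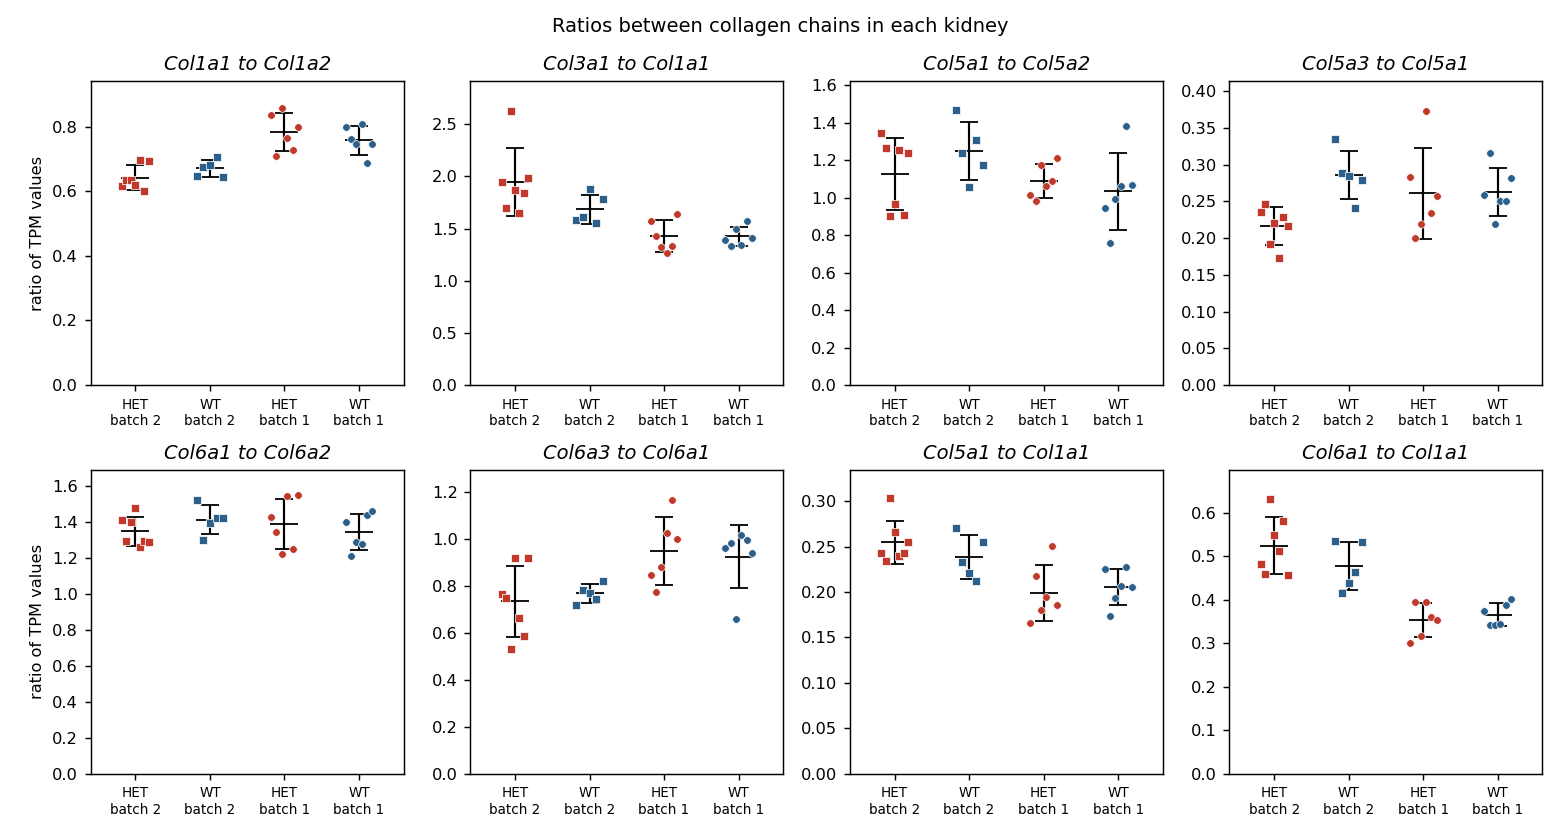
Ratio of TPM values between chains (y axis) in every kidney by genotype and batch (x axis; HET red, WT blue); bars are the mean ± SD. Col1a1 to Col1a2 is lower in batch 2 than in batch 1 while HET and WT overlap, and Col5a3 to Col5a1 in batch 2 is 0.173 to 0.247 in HET and 0.242 to 0.335 in WT.

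More ratios differed between the batches, 5 of 8. All of these except Col6a3 to Col6a1 hold Col1a1, so they are not separate observations. Of single genes, 63.5% of 18339 were called between the batches by edgeR. Col1a1 to Col1a2 was 0.654 ± 0.0355 in batch 2 and 0.770 ± 0.0512 in batch 1 (n = 12 each), 0.850 times as high (permutation of batch within genotype, p = 1e-05, the smallest the draws can give, adjusted over the 8 ratios 2.67e-05). By expected counts the batches did not overlap at all, with 0.707 to 0.819 in batch 2 and 0.828 to 0.967 in batch 1. Col6a1 to Col1a1 was 0.504 ± 0.0635 in batch 2 and 0.359 ± 0.0325 in batch 1, without overlap (1.40 times as high, adjusted p = 2.67e-05). Col3a1 to Col1a1 was 1.27 times as high in batch 2 (adjusted p = 2.67e-05) and Col5a1 to Col1a1 1.23 times (adjusted p = 0.00044). For Col5a1 to Col1a1 the log2 difference was 0.30 by TPM and 0.12 by expected counts (1.09 times, adjusted p = 0.0229), and on log2(TPM + 1) the call was lost (0.14, adjusted p = 0.0582). Col6a3 to Col6a1 was 0.798 times as high (adjusted p = 0.00454). Col6a1 to Col6a2 did not pass (1.01 times, p = 0.82), nor did Col5a1 to Col5a2 or Col5a3 to Col5a1.

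By CPM, 5 of the 9 chains were higher in batch 2 than in batch 1 and none was lower by edgeR. Of all 18339 genes, 5977 (32.6%) were called higher, and 11645 (63.5%) were called in either direction. The log2 fold changes were 0.48 for Col6a1 (SE 0.07, adjusted p = 1.2e-06), 0.47 for Col6a2 (SE 0.09, adjusted p = 6.05e-05), 0.31 for Col3a1 (SE 0.11, adjusted p = 0.0182), 0.26 for Col1a2 (SE 0.09, adjusted p = 0.0143) and 0.24 for Col5a2 (SE 0.08, adjusted p = 0.014). Without WT replicate 9 the call of Col3a1 was lost. Col1a1 had 0.02 (SE 0.11, adjusted p = 0.912). Col5a1, Col5a3 and Col6a3 did not pass, but each passed when one of 1 (Col5a1, HET replicate 10) or 4 libraries was left out, HET replicates 1, 9, 10 and 11 for Col5a3 and HET replicates 1, 9 and 10 and WT replicate 11 for Col6a3. On the log2(TPM + 1) scale all 9 chains and 17035 genes were called. TPM shares are taken over all genes, so the difference in non-coding share given above enters that scale. Marker lists of several cell types stood higher in batch 2 as well. The summed level of 8 endothelial genes was 492.6 to 552.1 CPM in batch 2 and 352 to 451 CPM in batch 1, and that of 7 genes of the loop of Henle and collecting duct 5190 to 6580 CPM in batch 2 and 4094 to 4693 CPM in batch 1, both without overlap. The batches overlapped for the 11 macrophage genes, with 385 to 633 CPM in batch 2 and 285 to 436 CPM in batch 1, and for the 16 fibroblast genes, with 336 to 479.5 CPM in batch 2 and 268 to 365 CPM in batch 1. They also overlapped for the 11 mesangial and smooth muscle genes, at 238 to 328 CPM in batch 2 and 194 to 258 CPM in batch 1. The 7 proximal tubule genes had lower medians in batch 2, 13490 CPM in HET and 13750 CPM in WT mice. In batch 1 these were 14330 and 14570 CPM. The 9 T and B cell genes also had lower medians in batch 2, 5.66 CPM in HET and 5.73 CPM in WT mice, against 5.81 and 7.17 CPM. The part of these cell types in the chains' differences was not tested. The labels do not say in what else the batches differed, and mouse cohort and library batch cannot be told apart.

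Between mice of one genotype and batch each chain had a larger spread than most genes of its level. After the means of each genotype in each batch were removed, the SD of log2 CPM was 0.28 for Col1a1 and for Col3a1, 0.22 for Col1a2, 0.23 for Col6a2, 0.24 for Col5a3 and 0.18 for Col6a1. Among the 962 genes with a mean within 0.5 log2 units of Col1a1, 98.1% varied less and the median SD was 0.08. For Col5a3, the least abundant chain, 86.7% of 2053 such genes varied less. The same mice were high or low in most chains. In batch 1, HET replicate 1 was the highest of 12 mice in 7 of 9 chains, with a summed level of 914 CPM, and in batch 2, HET replicate 10 was the lowest of 12 mice in 6 of 9 chains, with 638 CPM. The summed level ranged from 638 to 907 CPM in HET and 653 to 991 CPM in WT mice of batch 2, and from 573 to 914 CPM in HET and 562 to 770 CPM in WT mice of batch 1.

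Correlation across the 24 mice, with those means removed, described how the chains moved together. All 36 pairs correlated positively (Pearson r from 0.09 to 0.98, median 0.77), and 32 of 36 passed at an adjusted p under 0.05 (permutation within genotype and batch, adjusted over the 36). Without the 2 mice farthest from the median 29 passed, without the 3 doubted libraries 32, in batch 2 alone 24 and in batch 1 alone 25. The closest pair was Col1a1 with Col1a2 (r = 0.978, rho = 0.955, p = 1e-05 for both, the smallest the draws can give), with r = 0.978 in batch 2 and 0.984 in batch 1. Col1a1 with Col3a1 followed (r = 0.969, rho = 0.946). In collagen VI, Col6a1 and Col6a2 correlated at r = 0.882 (rho = 0.873), and each was the other's closest gene of the 15359 ranked.

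The chains of collagen V were less alike. Col5a2 and Col5a3 correlated least of all pairs (r = 0.09, rho = 0.07, p = 0.681), and Col5a1 correlated with Col5a2 at r = 0.469 and with Col5a3 at r = 0.672. Col5a1 was closest to Col1a1 (r = 0.93). The 29 pairs of different types had a median r of 0.78 and the 7 pairs of one type 0.67. The 4 pairs that did not pass all held Col5a2 or Col5a3. These were Col5a2 with Col5a3, Col5a2 with Col6a3 (r = 0.235), Col5a3 with Col6a1 (r = 0.422) and Col5a3 with Col6a2 (r = 0.326). All points share their library, so depth and composition of a library enter both chains of a pair.

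**Figure D4:**
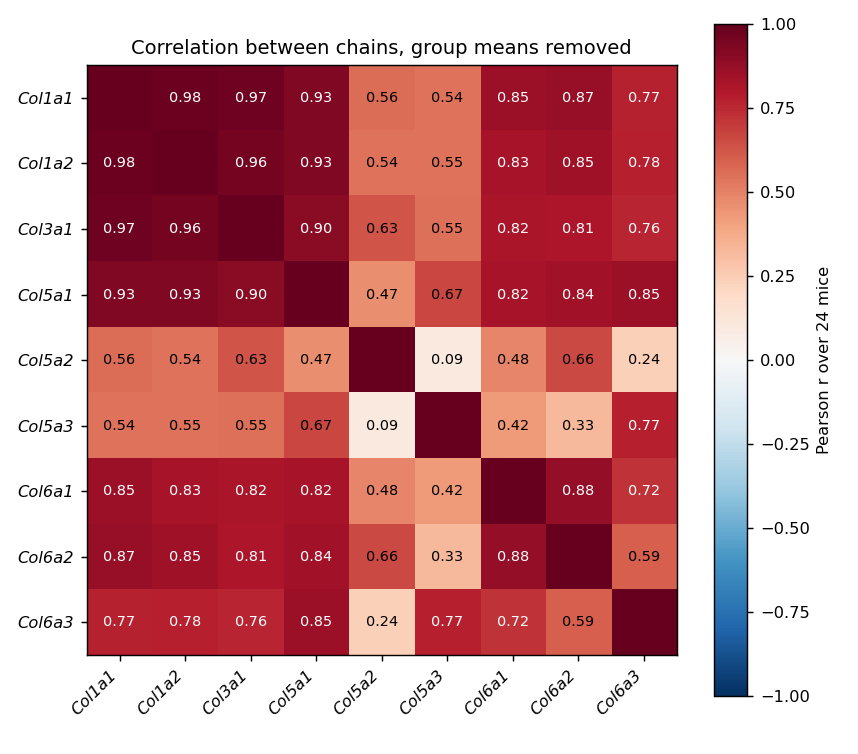
Pearson r between the log2 CPM of each pair of chains over 24 mice, after the mean of each genotype in each batch was removed; red is positive. Collagen I, III and Col5a1 form the block of highest values (r = 0.904 to 0.978), and the rows of Col5a2 and Col5a3 are palest.

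Col1a1 swung more widely than its partner. Its SD was 1.247 times that of Col1a2. Equality of the 2 SDs was tested by correlating the sum of the 2 chains with their difference. This gave r = 0.732 (rho = 0.73, permutation p = 0.00024 and 0.00016, adjusted over 8 ratios 0.00192 and 0.00128). A positive r restates that Col1a1 has the larger SD: in mice with more of both chains the difference tilted toward Col1a1. The r was 0.759 without the 2 farthest mice, 0.613 in batch 2 and 0.859 in batch 1. The SD of Col5a1 was 0.747 times that of Col1a1 (r = -0.627, adjusted p = 0.0119, permutation) and that of Col6a1 0.65 times (r = -0.65, adjusted p = 0.00956, permutation). Col3a1 with Col1a1 did not pass this test (r = -0.04, p = 0.879), nor did Col5a2 with Col5a1 (r = -0.03, p = 0.88), and Col6a1 with Col6a2 missed it (r = -0.45, adjusted p = 0.0792). This test was added after the ratios had been seen.

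**Figure D5:**
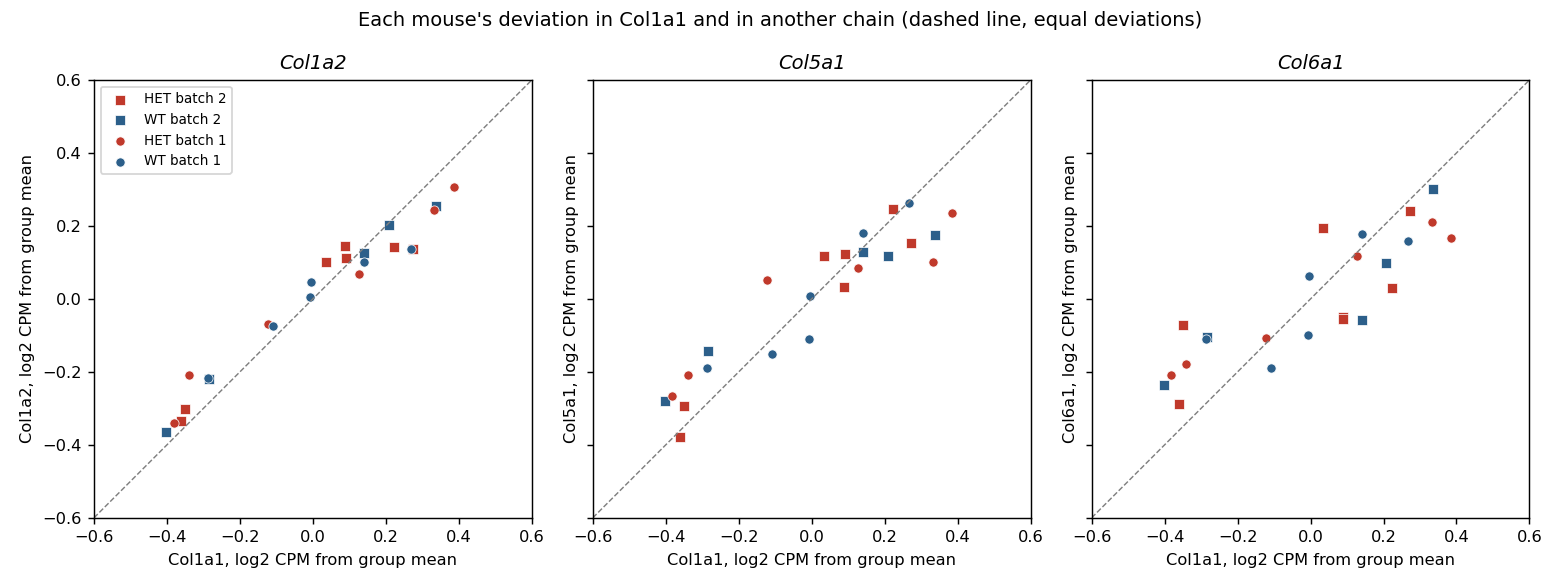
Deviation of each mouse from the mean of its genotype and batch in log2 CPM, for Col1a1 (x axis) and Col1a2, Col5a1 or Col6a1 (y axes); the dashed line marks equal deviations. The points run flatter than the line, as the SD ratios of 1.247 (Col1a1 over Col1a2), 0.747 (Col5a1 over Col1a1) and 0.65 (Col6a1 over Col1a1) state.

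All tested genes of at least 1 CPM were ranked by how closely they followed the mean of the 9 chains. The highest Pearson r over 24 mice was that of Col15a1, a basement membrane zone collagen (r = 0.948, with 0.933 in batch 2 and 0.975 in batch 1). Then came Adamts2, the protease that trims the amino end of procollagens (0.922), Fstl1, a secreted glycoprotein (0.921), and Sparc, a collagen-binding matrix protein (0.913). Fbn1, the main microfibril protein, had 0.912, Aebp1, a collagen-binding protein, 0.903 and Bgn, a small proteoglycan, 0.90. Mmp14, a membrane-bound collagenase (0.894), Col18a1, the source of endostatin (0.885), and Mrc2, a collagen uptake receptor (0.884), completed the 10 highest. For single chains, Col5a2 was closest to Cpe (r = 0.82), a carboxypeptidase, Col5a3 to Ank (r = 0.827), a membrane protein of phosphate and ATP export, and Col6a3 to Fstl1 (r = 0.93). These are descriptions chosen by rank, with no test.

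The 9 chains were also set against 9 genes of the study or of kidney cell types, and 31 of 81 pairs passed after adjustment over the 81. Pdgfrb, the receptor that marks fibroblasts, pericytes and mesangial cells, passed with 8 of 9 chains (r = 0.123 with Col5a2 to 0.859 with Col6a3). Adgre1, the macrophage gene for F4/80, passed with 7 (highest r = 0.809, with Col1a1). Lcn2 and Havcr1, genes of injured tubules, passed with 6 and 5 (highest r = 0.696 and 0.757, both with Col3a1), and Acta2, smooth muscle actin, with 4 (highest r = 0.629, with Col6a1). Col4a5, the Alport gene, passed with 1 chain, Col5a3 (r = 0.489, rho = 0.517, permutation p = 0.0175, adjusted p = 0.0458), a call that was lost without the 2 farthest mice (r = 0.441, adjusted p = 0.167) and without the 3 doubted libraries (adjusted p = 0.0853). Nbl1, Adipoq and Umod passed with none (medians of r 0.36, -0.10 and 0.36). For Adipoq, a fat gene, r was above 0 with 3 of 9 chains, lowest with Col5a2 (-0.323) and highest with Col5a3. With Col5a3 it was 0.383 over all mice (adjusted p = 0.18, permutation). In batch 2 alone it was 0.689 (permutation p = 0.0216, unadjusted) and in batch 1 alone 0.255. Without the 2 farthest mice 24 pairs passed, in batch 2 alone 14 and in batch 1 alone 16.

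Genes that make, trim, bind or clear collagen were tested in the same fit over all mice. That fit called 0 of 18339 genes (0.0%), so no list could hold a called gene. edgeR called none of the 24 tested genes of procollagen folding (median log2 fold change 0.02), 15 of propeptide removal and crosslinking (0.02), 22 of fibril-associated matrix (-0.01), 19 of turnover and receptors (-0.0041) or 29 other collagen chains (-0.07), where the median of all genes was 0.01 and that of the 9 chains 0.03. Genes of these lists with an unadjusted p under 0.05 by edgeR are named here. P3h2, a prolyl 3-hydroxylase, had 0.12 (SE 0.05, unadjusted p = 0.0134) and Ddr2, a collagen receptor kinase, 0.10 (SE 0.04, unadjusted p = 0.0323). Antxr2, from the list of turnover and receptors, had -0.11 (SE 0.05, unadjusted p = 0.0395). Loxl4, a lysyl oxidase, had 0.19 (SE 0.09, unadjusted p = 0.0461) and Pcolce, which speeds propeptide cleavage, 0.09 (SE 0.04, unadjusted p = 0.0491). Col4a3, partner of Col4a5, had -0.09 (SE 0.04, unadjusted p = 0.0493). Among the 16 tested fibroblast and myofibroblast genes Tagln had 0.17 (SE 0.09) and Acta2 0.15 (SE 0.09), and 0 were called. None of the other lists of cell type markers held a called gene.

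Cell type lists were also set against the mean of the 9 chains, as a description. The 11 macrophage genes had a median r of 0.82 (11 of 11 above 0, highest 0.883 for C1qc), the 16 fibroblast genes 0.49 (16 of 16), the 11 mesangial and smooth muscle genes 0.44 (11 of 11) and the 11 tubular injury genes 0.49 (11 of 11). The 7 proximal tubule genes had -0.34 (1 of 7 above 0), the 8 podocyte genes -0.14 (3 of 8) and the 10 adipose genes 0.02 (7 of 10). Over all other genes tested the median was -0.05. Fibril-associated matrix had 0.53, and procollagen folding 0.14, where Fkbp10 was highest (0.663) and Mia2, which acts in collagen export from the endoplasmic reticulum, lowest (-0.58). The 10 immediate early genes, which respond to handling and stress, had a median r of -0.20 (0 of 10 above 0). Their log2 fold changes of HET over WT were all above 0 (median 0.89, with Fosb at 2.04, SE 0.78). None was called by edgeR, which called no gene at all over all mice.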

How the data were processed

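Bulk RNA-seq was made from 24 kidneys with a poly(A) mRNA library kit, per the labels' protocols. The submitters' processing notes name fastp, STAR and featureCounts and the build GRCm38 (mm10), without versions. The authors deposited 1 table of expected counts per gene, in which 11.8% to 15.4% of values were not whole. The step that made them so: not given in the sources used here. TPM and FPKM per gene were also deposited by the authors, scaled by length and library. FPKM was not tested.

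Expected counts were rounded to whole numbers. Of 55487 genes, 18339 passed filterByExpr by genotype (minimum count 10) and held 99.9% of counts. Library scaling was TMM, and the main test edgeR's quasi-likelihood test (edgeR 4.0.16, R 4.3.3) with batch as a covariate and Benjamini-Hochberg adjustment over all genes at 0.05. Alternatives used DESeq2 1.42.0, limma 3.58.1 (voom, or log2(TPM + 1)), other size factors, no filter, no batch term, and libraries left out. CPM values are TMM-scaled. Ratios were tested by permutation (100000 draws, or exact within a batch), and correlations likewise. Intervals are 95%. The fits were tested on simulated counts. Coordinates come from GENCODE M21, which held 55141 of the 55487 IDs.

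The members and gene lists were chosen with earlier results of these data known. Besides the chains, genes were named by rule: from each of 18 lists up to 3 of smallest p for HET against WT and the 1 of highest TPM, the 10 most like the mean of the chains, and the gene closest to each chain. The lists' extremes in correlation, and the genes in the text with the highest r of a list, were named after their values were seen.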

Additional observations from a re-analysis of the deposited data

Results flagged for a closer look

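In 3 of 68 groups of mice tested, 1 library stood apart from the others of its genotype and batch by Dixon's criterion at the 95% level, which chance alone reaches in about 1 of 20 groups. HET replicate 2 had the lowest Col5a3 of the HET mice of batch 1, 5.63 CPM, where the highest was 9.98 CPM. HET replicate 9 had the highest Col3a1 to Col1a1 ratio of TPM of the HET mice of batch 2, 2.63. Its ratio of expected counts was 1.62, where the lowest of that group was 1.45. WT replicate 3 had a Col6a3 to Col6a1 ratio of TPM of 0.66, apart from the other WT mice of batch 1, with a ratio of expected counts of 1.40. A relative effective length was computed here by dividing expected count by TPM, relative to the same quotient of Col1a1. It was 0.617 for Col3a1 in HET replicate 9, the lowest of all mice, and 1.47 for Col6a3 in WT replicate 3, the highest.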

How the results depend on the processing

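No paired analysis was possible because the replicate numbers were given in accession order and pair no samples. Leaving out single libraries was not run for the slope on Nbl1. No chain was called for HET against WT over all mice or in batch 1 under any setting run, and Col5a3 in batch 2 was called by DESeq2 only. Signs of estimates near 0 turned. For HET against WT over all mice, Col1a1 was -0.00156 with DESeq2, -0.00479 with voom, -0.00176 with DESeq2 size factors, -0.0101 without the filter, -0.0503 on log2(TPM + 1) and -0.0454 without the 3 doubted libraries. Col1a2 was 0.0114 with no batch term and Col6a1 -0.000418 without the doubted libraries. On log2(TPM + 1), Col5a1 was -0.0341, Col5a2 -0.00162, Col6a1 -0.0162, Col6a2 -0.00266 and Col6a3 -0.0399, and in batch 2 Col5a2 was -0.0528 and Col6a2 -0.10. The slope of Col5a2 on Nbl1 was 0.12 without the doubted libraries. Genes called were 2 without the doubted libraries (all mice, batch 1 and slope alike), 1 with DESeq2 and 1 without the filter in batch 1, 26 with DESeq2, 3 without the filter and 0 on log2(TPM + 1) in batch 2, and 21 with DESeq2 for the slope.

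Leaving out 1 library, the estimates for all mice ran from -0.0586 to 0.0443 for Col1a1, -0.0492 to 0.0271 for Col1a2, -0.014 to 0.0933 for Col3a1, -0.00402 to 0.0658 for Col6a1 and -0.0208 to 0.0456 for Col6a3. In batch 1 Col6a2 ran from -0.0262 to 0.13. In batch 2 Col3a1 ran from -0.165 to 0.0181, Col6a1 from -0.103 to 0.0409 and Col6a2 from -0.0308 to 0.11, with 1 to 3 genes called (3 without HET replicate 10). For batch 2 against batch 1 Col1a1 ran from -0.0403 to 0.0621. The interaction called 0 to 1 genes (1 without WT replicate 9). The ratio differences over all mice ran from -0.0245 to 0.0038 for Col1a1 to Col1a2, -0.0784 to 0.00538 for Col5a1 to Col5a2, -0.28 (without HET replicate 4) to -0.18 for Col5a3 to Col5a1, -0.0311 to 0.00335 for Col6a1 to Col6a2, -0.0745 to 0.0112 for Col6a3 to Col6a1 and -0.00915 to 0.0482 for Col5a1 to Col1a1. In batch 1 Col5a3 to Col5a1 ran from -0.138 to 0.0411, and between batches Col6a1 to Col6a2 ran from -0.00536 to 0.0301. With medians, Col5a1 to Col5a2 was 0.0378 and Col5a1 to Col1a1 -0.0314 over all mice, and Col6a1 to Col6a2 -0.0135 between batches. Col5a3 to Col5a1 in batch 1 was 0.0348 without the doubted libraries. Between batches, expected counts gave -0.0928 for Col5a1 to Col5a2 and 0.0825 for Col5a3 to Col5a1, and log2(TPM + 1) gave -0.36 for Col5a3 to Col5a1, which then passed, and 0.14 for Col5a1 to Col1a1, which did not. Of 81 pairs of chains with other genes, 16 passed in batch 1 alone, 14 in batch 2 alone and 60 on log2(TPM + 1). The causes were not tested.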
